A study of Drosophila melanogaster with 4 samples.

Results

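The telomere-proximal ends of 4 chromosome arms of Drosophila melanogaster carried 690 of the 20574 clusters called as enriched for POF in a combined ChIP-seq list, or 3.35%. A cluster was counted when its midpoint lay in the first 1 Mb of arm 2L, 3L or X, or on 3R from position 26900001 to the end of the sequence, in FlyBase release 5 coordinates. The arm sequences of 2L, 3L and X are numbered from the telomere inwards, whereas 3R is numbered towards its telomere. Together the 4 ends span 4005053 bp, which is 4.09% of the bases of these arms, and they held 4.46% of the 15477 clusters on them. The lists of the single ChIP libraries placed 240 clusters (replicate 1) and 209 clusters (replicate 2) in the same ends.

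POF is an RNA-binding protein best known for coating the small chromosome 4, where it binds along active genes. Fly telomeres are not built by telomerase. They consist of arrays of the retrotransposons HeT-A, TART and TAHRE, followed inwards by telomere-associated repeats and then by ordinary genes, and transgenes inserted into the repeats are commonly silenced. In a RefSeq gene table of release 6, the outermost protein-coding genes of 2L begin with l(2)gl, a tumour suppressor of epithelial polarity. Those of 3L include Lsp1gamma, a larval serum protein, and those of X include G9a, a histone methyltransferase, and ewg, a transcription factor. These names give the order of genes only. No cluster was assigned to a gene, because the lists use release 5 and coordinates were not converted.

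All libraries came from wild-type Oregon-R (Oregon-R-modENCODE) larvae of the 3rd instar, with no treatment named, and homogenized tissue was fixed with formaldehyde. The 2 ChIP libraries used a rabbit polyclonal antibody against POF residues 1 to 150, and 2 input libraries accompanied them. The free-text descriptions of ChIP replicate 2 and input replicate 1 disagree with their titles on what was precipitated, and the titles were followed here. No source says whether the replicates were separate collections of larvae, and their spread may therefore be technical.

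The replicate lists differed on the known target. Clusters covered 27.9% of chromosome 4 in replicate 2, against 10.2% of the 4 arms described here, but only 3.92% in replicate 1, against 8.54%. In the combined list the shares were 31.3% and 29.7%. The main measures below are therefore given for each replicate separately, and values of the combined list alone or of the mean of the replicates are named as such. The lists hold no read counts, so sequencing depth is unknown. Whether the difference on chromosome 4 bears on the arm ends was not tested.

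The first question was how densely the ends are covered compared with the interior of the same arms, meaning all of each arm except its telomere-proximal region and the 1 Mb at its other side. Clusters covered more of the ends than of the interior in all 3 lists. The covered share, the percentage of bases inside clusters, was 35.0% at the ends and 29.9% in the interior in the combined list, 10.6% and 8.55% in replicate 1, and 11.9% and 10.3% in replicate 2. Over the replicates the ends had 11.3% ± 0.94 (SD, n = 2) and the interior 9.43% ± 1.25 (SD, n = 2). The difference within each library was 1.83 percentage points ± 0.31 (SD, n = 2), larger than its spread between the replicates. An exact two-sided sign-flip test over 2 libraries gave p = 0.5, the smallest it can give, so no comparison of ends and interior here can pass a threshold. The direction depended on the size of the region. With ends of 500 kb, the combined list differed by -0.79 percentage points and the mean of the replicates by 0.10, and with ends of 2 Mb by 8.61 and 2.94.

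By number, the ends carried 172 clusters per Mb against 159 in the interior in the combined list. The densities were 59.9 versus 49.0 per Mb in replicate 1 and 52.2 versus 45.4 per Mb in replicate 2. Pooled over the arms, neighbouring clusters lay closer together at the ends. The median gap between them was 1853.5 bp versus 2302 bp in the combined list, 7541.5 bp versus 9928.5 bp for replicate 1 and 6946 bp versus 7630.5 bp in replicate 2. By arm, the gap was shorter at the end in both replicates on 2L only, at 5891 bp versus 9882 bp and 5799 bp versus 7860.5 bp. It was longer at the end on 3L in replicate 2 (9971 bp versus 8098 bp), on 3R in replicate 2 (9772.5 bp versus 7551.5 bp) and on X in replicate 1 (16678 bp versus 14653 bp). In the other replicate of each of these arms it was shorter at the end, most of all on X in replicate 2 (3264 bp versus 6889 bp). That X end nevertheless held fewer clusters per Mb than its interior, 42 versus 47.9. Gaps of at most 1000 bp made up 34.1% of the gaps at the ends and 29.1% in the interior of the combined list. They made up 18.0% and 12.9% in replicate 2, but 7.63% and 8.78% in replicate 1, so close pairs were more frequent at the ends in only 1 of the 2 libraries.

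The 4 ends differed from each other. The 2L end had the highest covered share in the combined list and in replicate 2, and the 3R end had it in replicate 1. The 2L end was covered to 40.8% in the combined list, against 27.6% of the 2L interior. The shares were 13.2% versus 8.46% for replicate 1 and 16.6% versus 9.46% in replicate 2, a difference of 5.98 percentage points ± 1.69 (SD, n = 2). The interior of 2L holds 21 full windows of 1 Mb. None of them reached the covered share of the end in the combined list or in replicate 2, and 1 of 21 did in replicate 1. Windows along an arm are not replicates, and these ranks describe the regional spread within a list. Without 2L, the difference over the other ends shrank to 2.55 percentage points in the combined list and to 0.47 in the mean of the replicates.

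The 3L end was covered to 34.3% in the combined list against 29.4% of its interior, to 9.23% versus 8.72% in replicate 1 and to 12.4% versus 9.67% in replicate 2. Of the 22 interior windows of 3L, 3 reached the share of the end in the combined list, 9 for replicate 1 and 5 in replicate 2. The 3R end split the replicates. It was covered to 14.2% versus 10.8% of the interior in replicate 1, but to 9.09% versus 11.0% in replicate 2, with 39.4% versus 34.5% in the combined list. The 3R end held 83 clusters in replicate 1 and 41 in replicate 2, although the interior of 3R held 1586 and 1233. On this end, the difference from the interior was 0.79 percentage points ± 3.79 (SD, n = 2) and did not exceed the spread between the replicates.

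The X end had the lowest share of the 4 in the combined list and in replicate 1. It was covered to 25.7% in the combined list against 26.9% of the X interior, to 5.66% versus 5.61% in replicate 1 and to 9.61% versus 11.1% in replicate 2. In replicate 2 the 3R end was slightly lower, at 9.09%. The X interior has 20 full windows, of which 9, 8 and 13 reached the share of the end in the combined list, replicate 1 and replicate 2.

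**Figure D1:**
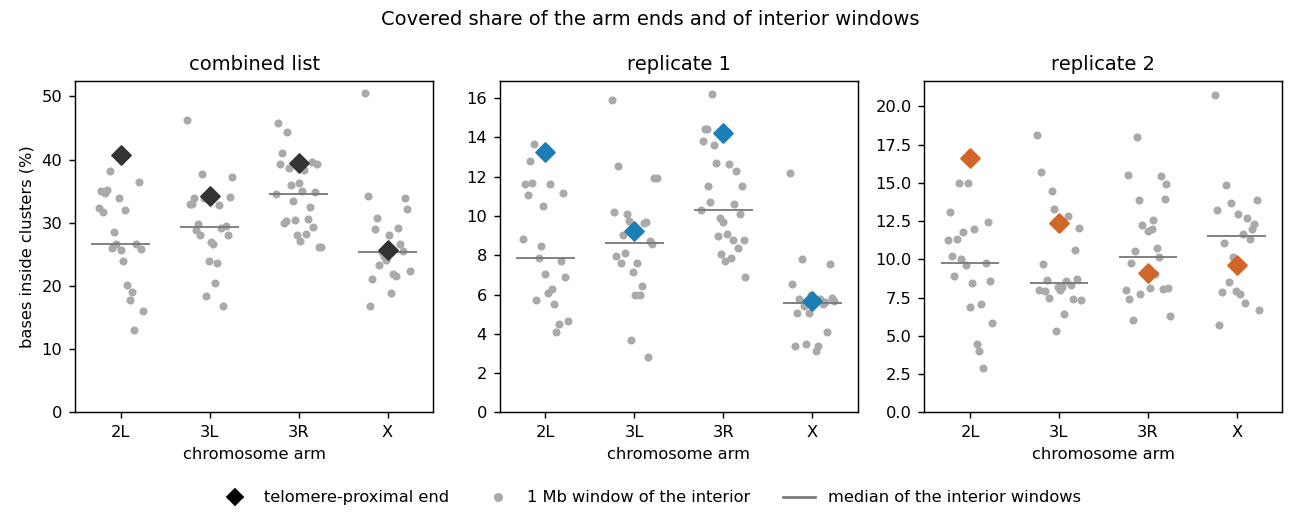
Percentage of bases inside clusters (y axis) for the telomere-proximal end of each arm (diamonds) and for every full 1 Mb window of the interior of that arm (grey points, with their median as a line), in the combined list and both replicate lists. The 2L end lies above all 21 interior windows of its arm in the combined list and in replicate 2, whereas the X end lies among its windows in every list.

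Coverage past the first 1 Mb differed by arm. On 3L and X, the neighbouring window from 1 to 2 Mb was covered more than the end itself and was the highest interior window of its arm in all 3 lists. On X it reached 50.6% in the combined list, 12.2% for replicate 1 and 20.8% in replicate 2. On 3L the same window reached 46.3%, 15.9% and 18.1%. On 2L the neighbouring window was lower than the end, at 32.3%, 8.84% and 11.3%, and on 3R it was also lower, at 34.6%, 10.3% and 7.99%.

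The opposite, centromere-proximal 1 Mb of the same arms was covered less than the telomere-proximal ends. It reached 20.5% in the combined list, 6.26% for replicate 1 and 5.86% in replicate 2. Both kinds of end differed by 5.21 percentage points ± 1.22 (SD, n = 2), in the same direction in both replicates (exact sign-flip p = 0.5). On X the centromere-proximal Mb held 13 clusters in each replicate, against 33 and 42 at the telomere-proximal end. On 3R, by contrast, the centromere-proximal share in replicate 2 was 12.4%, above the 9.09% of the telomere-proximal end.

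Pooled over the ends, clusters were sparse next to the telomere and denser further in. In the outermost 100 kb the combined list covered 3.92% of 3L, 6.42% of X, 13.2% of 3R and 19.5% of 2L. Of 225 interior windows of 100 kb on 3L, 0 were covered as little as this outermost bin. On X, 2 of 204 were, on 3R 5 of 259, and on 2L 65 of 210. In the replicate lists more interior windows were covered as little as the outermost bin. In replicate 1 these were 19 of 225 on 3L, 13 of 204 on X, 43 of 259 on 3R and 48 of 210 on 2L, and in replicate 2 they were 18, 16, 50 and 143. In replicate 1 the outermost 100 kb was covered to 3.92% on 2L, 1.82% on 3L, 5.02% on 3R and 0% on X. In replicate 2 the values were 12.1%, 0%, 2.98% and 0%. Only the outermost bin of 2L in replicate 2 exceeded the median of the interior windows of its arm, which was 7.57%. The outermost bin was not always the lowest of its end. On 2L the lowest bin ended at 700 kb in replicate 1 and at 1000 kb in replicate 2. On 3R it ended at 200 kb in both replicates, on 3L at 800 kb in replicate 1 and on X at 300 kb in the combined list. Elsewhere the outermost bin was the lowest or tied with another. How many reads can be mapped to the repeats near the telomeres cannot be read from the lists, and its part in the sparse outer bins was not tested.

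Over all 4 ends, belts of 200 kb counted from the telomeric end were covered to 18.4%, 36.0%, 42.2%, 37.1% and 41.5% in the combined list. In replicate 1 the same belts had 3.30%, 10.7%, 14.7%, 11.4% and 12.8%, and in replicate 2 they had 6.64%, 13.3%, 15.5%, 10.8% and 13.5%. The outermost belt was the lowest and the belt from 400 to 600 kb the highest in each list.

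A comparison of the outer 200 kb with the rest of the ends was added after these values were seen. The outer 200 kb was covered to 3.30% for replicate 1 and 6.64% in replicate 2, and the remainder to 12.4% and 13.2%. The difference was -7.86 percentage points ± 1.79 (SD, n = 2; exact sign-flip p = 0.5). The outer 200 kb also lay below the interior, by -5.25 percentage points in replicate 1 and -3.67 in replicate 2, whereas the remainder lay above it, by 3.87 and 2.93. On 3R in replicate 2 the remainder did not exceed the interior, at 10.8% versus 11.0%. On 2L the outer 200 kb stood apart from the other ends in replicate 2, with 14.6% covered against 9.46% of its interior. In replicate 1 the same stretch was covered to 6.29% versus 8.46%, so the direction on 2L was not shared by the libraries.

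**Figure D2:**
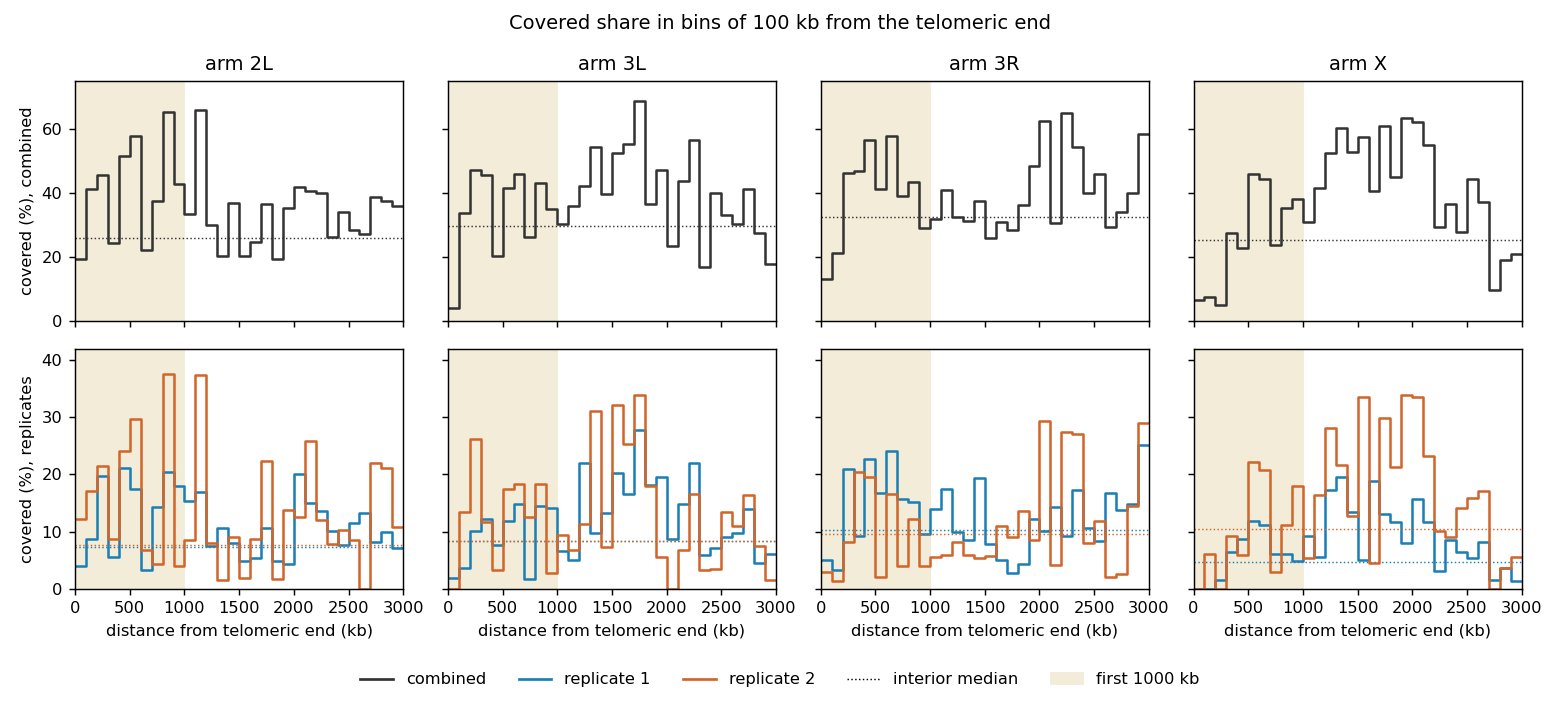
Percentage of bases inside clusters (y axis) in bins of 100 kb against the distance from the telomeric end of each arm sequence in kb (x axis), for the combined list above and both replicates below, with the median of the interior 100 kb windows of the arm as dotted lines. The outermost bin is at 3.92% on 3L and 6.42% on X in the combined list, and on X and 3L high bins continue past the shaded first 1000 kb.

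The sparse zone was longest on X. There the first 3 bins of 100 kb held 4 combined clusters each and were covered to 6.42%, 7.54% and 4.81%. The same bins had 0%, 0% and 1.44% in replicate 1, and 0%, 6.13% and 0% in replicate 2. The first cluster of replicate 1 on X began 254 kb from the end of the sequence and that of replicate 2 began 138 kb from it. The combined list had its outermost X cluster at 6360 to 7959 (1600 bp, score 0.37), which neither replicate list touched. The score is the authors' value for each cluster, taken as log2 with no stated reference, and it is compared only within a list. On X the longest stretch without a combined cluster ran from 173907 to 242637 (68.7 kb). In replicate 2 an empty stretch of 195 kb began nearly at the same position, at 174415, and 8 combined clusters lay in it.

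On 3L the outermost combined cluster lay at 59866 to 60871 (1006 bp, score 0.42), again touched by neither replicate. The first 3L clusters of the replicates began 66.6 kb and 125 kb from the end. Between clusters, the longest gap of the 3L end in the combined list ran from 383601 to 432646 (49.0 kb), shorter than the 59.9 kb before the first cluster. Replicate 2 had its longest gap between clusters, 55.9 kb, over nearly the same positions, from 379194 to 435102. Replicate 1 had its longest 3L gap between clusters elsewhere, 114 kb from 720028 to 834296, where 16 combined clusters were listed.

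On 2L and 3R the replicate lists began closer to the telomere than on 3L and X. The outermost 2L cluster lay at 7539 to 8664 (1126 bp, score 0.36; neither replicate), and the replicates began 31.0 kb and 17.7 kb from the end. On 3R they began 11.2 kb and 25.5 kb from it. The longest empty stretch of 2L in the combined list measured 23.3 kb, from 44222 to 67519. It was the shortest of the longest gaps between combined clusters on the 4 ends. The replicates did not share this. Replicate 1 had a gap of 94.0 kb on 2L, from 38222 to 132190, against 70.0 kb on X. Replicate 2 had a gap of 72.6 kb on 2L, from 641777 to 714397, against 55.9 kb on 3L. These are gaps between clusters only. Before its first cluster, replicate 1 left 254 kb of X empty, and replicate 2 left 125 kb of 3L empty. On 3R the outermost cluster lay at 27891983 to 27894446 (2464 bp, score 0.42), where replicate 1 alone called a cluster. The longest stretch without a combined cluster on 3R spanned 27788978 to 27815041 (26.1 kb). Replicate 2 left 170 kb of 3R without a cluster, from 27706925 to 27876542, in which 17 combined clusters lay.

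**Figure D3:**
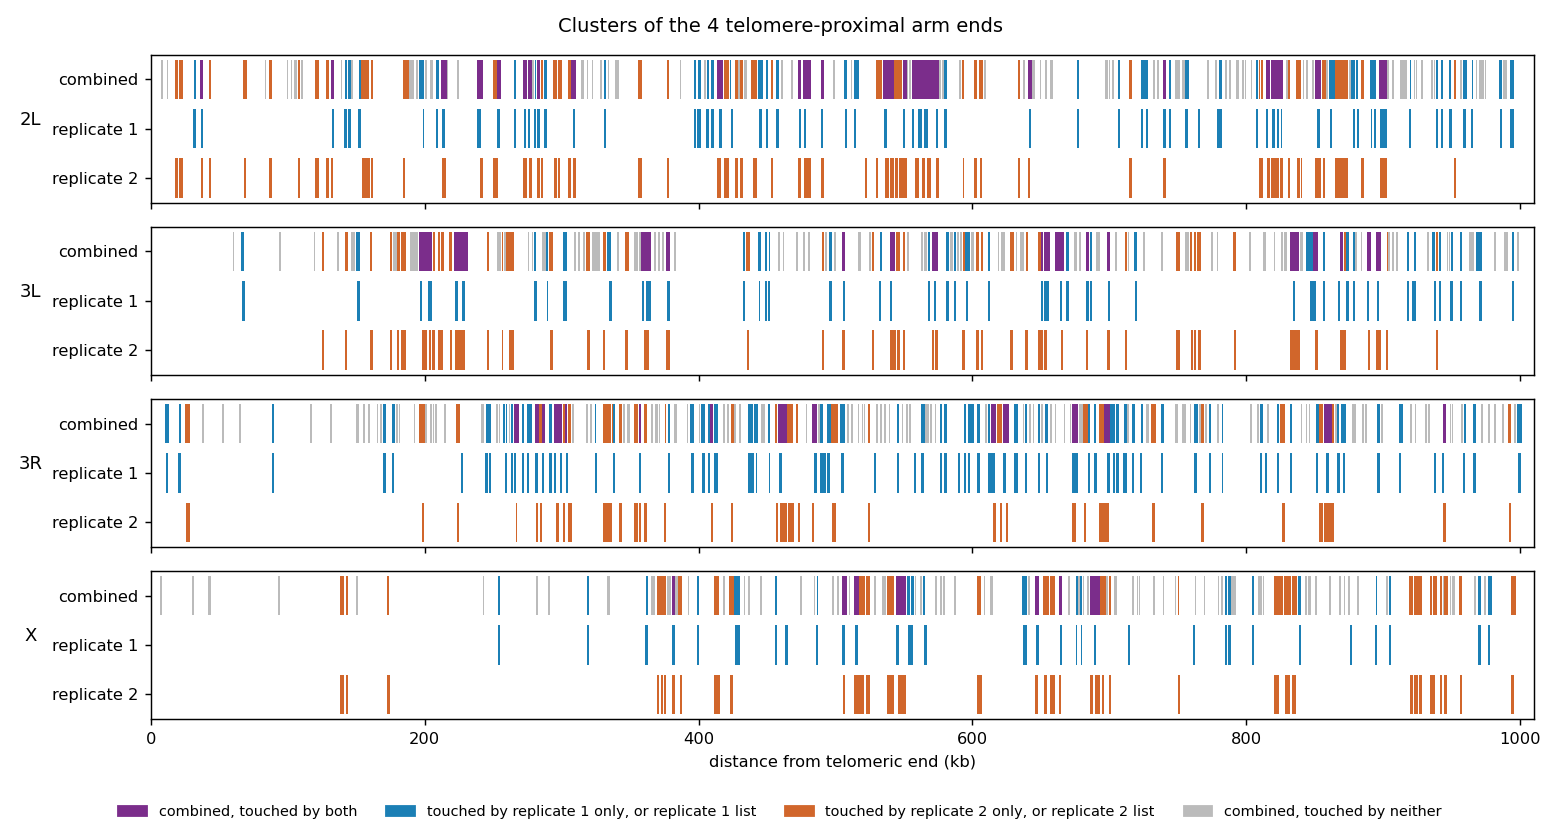
Every cluster of the 4 arm ends as a block along the distance from the telomeric end in kb (x axis), with a row for the combined list and each replicate list of each arm, and combined clusters coloured by the replicate lists that touch them. The outer part of X is nearly empty, with first replicate clusters 254 kb and 138 kb from the end. On 2L a long run of close combined clusters begins at 529 kb.

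The longest run of close clusters at the ends was on 2L in the combined list. When clusters separated by at most 1000 bp were joined, the region from 529465 to 581294 on 2L formed a run of 51830 bp made of 12 clusters, the longest of the 10975 runs on the 4 arms. It contained the longest single cluster of the ends, at 555601 to 572409 (16809 bp, score 0.60), which was the second longest of the 15477 combined clusters on these arms. Each replicate list had 3 clusters touching it. The one with the largest overlap scored 0.67 in replicate 1, at the 63.0 percentile of that list, and 0.91 in replicate 2, at the 84.1 percentile. In replicate 2 the longest run of the 2L end also lay here, from 535868 to 552085 (16218 bp, 5 clusters). Replicate 1 had its longest 2L run at 396750 to 402010 (5261 bp, 2 clusters), outside this region.

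The other ends had shorter runs. In the combined list the longest measured 19830 bp on 3L (581117 to 600946, 8 clusters), 18497 bp on X (369543 to 388039, 5 clusters) and 18123 bp on 3R (27277993 to 27296115, 5 clusters). Between 40 and 52 runs on the 4 arms were at least as long as these. The longest runs of the replicates on 3L, X and 3R measured 4329, 4130 and 7128 bp in replicate 1, and 7416, 7533 and 10758 bp in replicate 2. The longest single clusters were 9973 bp on 3L (221571 to 231543), 7225 bp on X (685972 to 693196) and 6267 bp on 3R (27440661 to 27446927), each touched by both replicates.

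Clusters at the ends were longer than those of the interior in the combined list and in replicate 1. The median length was 1643 bp versus 1509 bp in the combined list and 1660 bp versus 1585.5 bp in replicate 1, but 1993 bp versus 1996 bp in replicate 2. The difference over the replicates was 35.75 bp ± 54.8 (SD, n = 2), within the spread between them. On 2L the end had the longer median in every list, at 1722 bp versus 1499.5 bp in the combined list, 1778.5 bp versus 1604 bp for replicate 1 and 2138.5 bp versus 2000 bp in replicate 2, a difference of 156.5 bp ± 25.5 (SD, n = 2). Clusters of at least 3000 bp numbered 102 of 690 at the ends of the combined list (14.8%), where the interior had 1605 of 14332 (11.2%). The replicate lists did not share this direction, with 2.08% versus 3.75% for replicate 1 and 16.7% versus 16.4% in replicate 2.

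Scores at the ends were close to those of the interior. The median was 0.43 in both places in the combined list, 0.64 versus 0.63 for replicate 1 and 0.63 versus 0.62 in replicate 2. The difference over the replicates was 0.0064 ± 0.0059 (SD, n = 2). High scores made up a smaller share at the ends in each list, without a test of the difference. Of the combined clusters at the ends, 57 of 690 (8.26%) fell in the upper 10% of the scores of the 4 arms, and 1402 of 14332 (9.78%) did in the interior. With each list's own upper 10%, the shares were 7.50% versus 9.80% for replicate 1 and 6.22% versus 10.1% in replicate 2. The 90th percentile of scores was correspondingly lower at the ends, at 0.54 versus 0.56 in the combined list, 0.75 versus 0.77 for replicate 1 and 0.98 versus 1.08 in replicate 2.

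The arms were not alike in this. On 2L the share of scores in the upper 10% was higher at the end than in the interior in all 3 lists, at 9.38% versus 7.33% in the combined list, 8.57% versus 4.24% for replicate 1 and 10.3% versus 9.55% in replicate 2. These 2L shares rest on 18, 6 and 7 clusters. On X the end was lower in all 3 lists, at 15.4% versus 23.0%, 24.2% versus 34.9% and 7.14% versus 12.3%. The 3L end was lower as well, at 6.59% versus 6.63%, 3.70% versus 5.63% and 1.72% versus 8.82%. So was the 3R end, at 3.98% versus 5.86%, 2.41% versus 5.55% and 4.88% versus 9.81%. Median scores pointed the same way on X, at 0.49 versus 0.50 in the combined list, 0.71 versus 0.74 for replicate 1 and 0.64 versus 0.71 in replicate 2, a difference of -0.049 ± 0.025 (SD, n = 2).

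**Figure D4:**
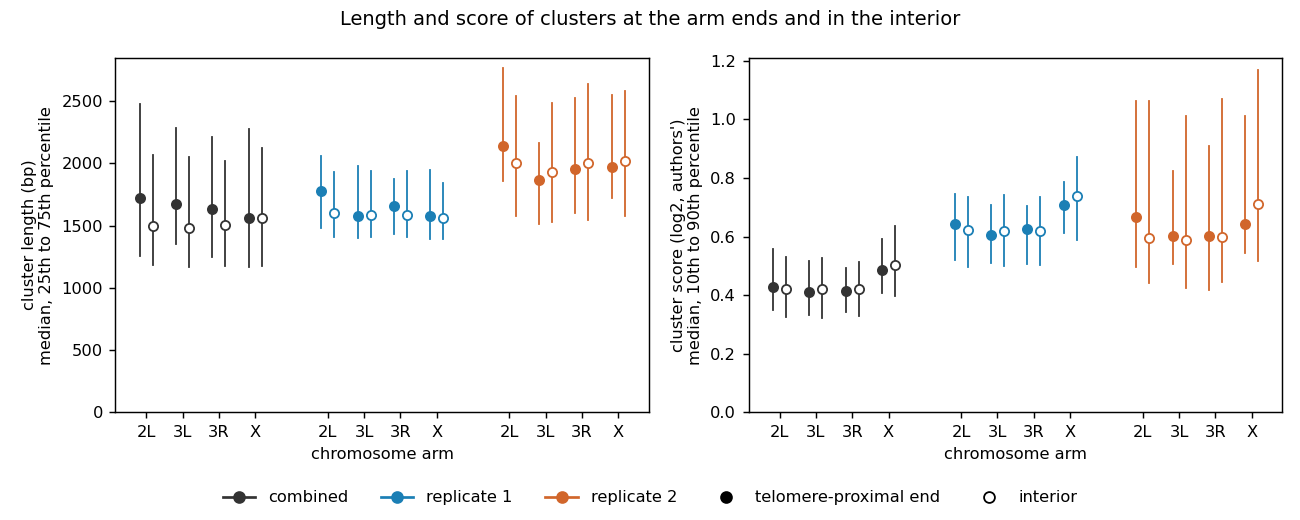
Median cluster length in bp with the 25th to 75th percentile (left) and median score on the authors' log2 scale with the 10th to 90th percentile (right), by arm and list, for the telomere-proximal ends (filled) and the interior (open). The 2L end has the longer median in every list, 2138.5 bp versus 2000 bp in replicate 2, and the X end has the lower median score in every list, 0.64 versus 0.71 in replicate 2.

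How far both libraries shared these clusters was examined next. Of the 690 combined clusters at the ends, 64 (9.28%) were touched by both replicate lists, against 8.45% in the interior, and 326 (47.2%) by neither, against 52.0%. Of the rest, replicate 1 alone touched 159 and replicate 2 alone 141. The share touched by both was 24 of 192 on 2L (12.5%), 18 of 167 on 3L (10.8%), 15 of 201 on 3R (7.46%) and 7 of 130 on X (5.38%). The shares in the interiors of these arms were 8.82%, 8.74%, 8.53% and 7.54%. The outer 200 kb of the ends held 3 of the 64 shared clusters, among 76 combined clusters there. The 64 shared clusters were 3235.5 bp long in the median and scored 0.55, whereas the 326 that neither list touched were 1290.5 bp long and scored 0.43. A longer cluster is more easily touched, so the lengths of these classes are partly set by how they were made. The replicate clusters that touch a shared cluster need not overlap each other.

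Between the replicate lists, 65 of the 240 replicate 1 clusters at the ends (27.1%) were touched by replicate 2, and 64 of the 209 replicate 2 clusters (30.6%) by replicate 1. The interior gave 27.8% and 29.1%. Overlap varied by arm and by the list counted. Of the replicate 1 clusters, replicate 2 touched 37.1% on 2L and 35.2% on 3L, but 15.7% on 3R and 21.2% on X. The interiors of 2L, 3L, 3R and X gave 28.3%, 28.5%, 25.4% and 31.8%. Of the replicate 2 clusters, replicate 1 touched 39.7% on 2L, 31.0% on 3L, 29.3% on 3R and 16.7% on X. In the interiors of these arms it touched 31.5%, 31.0%, 31.5% and 22.0%. Bases covered in both replicates made up 15.8% of those covered in either on the 2L end, 13.5% on 3L, 6.87% on X and 5.86% on 3R. The interiors had 12.6% on 2L, 11.5% on 3L, 9.46% on X and 11.6% on 3R. A list that covers more of a region touches more of it by position alone, and the lists differ in coverage between these ends. Across the 40 bins of 100 kb of the ends, the covered shares of the replicates had a Pearson's r of 0.48 and a Spearman's rho of 0.46, as a description over neighbouring bins that share the sequence and its mappability. Without the outer 200 kb the coefficients were 0.38 and 0.33 over 32 bins, and over 898 interior bins they were 0.41 and 0.39.

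The 5 shared clusters with the highest combined scores at each end lay between 222 kb and 897 kb from the telomere. All 20 thus lay outside the outer 200 kb, which held only 3 of the 64 shared clusters they were drawn from. The 20 measured 2095 to 9973 bp. Their combined scores stood between the 85.0 and 99.5 percentiles of the combined clusters on the 4 arms, which reflects how they were chosen. The scores of the replicate clusters with the largest overlap ranked from the 39.6 to the 99.3 percentile in replicate 2, with a median of 91.7, and from the 0.67 to the 99.4 percentile in replicate 1, with a median of 61.1. Replicate 2 gave the higher percentile in 15 of the 20 and replicate 1 in 5. The same count was not made for other shared clusters or for the interior, so it is not shown to be particular to the ends. How the combined score was derived is not known here, so its rank is no independent measure.

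On 2L the leading shared cluster spanned 896783 to 902694 (5912 bp, score 1.38). It scored 1.06 in replicate 1 (99.4 percentile) and 1.81 in replicate 2 (98.8 percentile), and its boundaries in both lists began within the combined cluster, at 897614 and 897636. The second, at 476626 to 482205, scored 1.25, with 0.58 in replicate 1 (28.6 percentile) and 1.79 in replicate 2 (98.8 percentile). There replicate 1 called 1315 bp and replicate 2 called 5174 bp. The remaining 2L clusters lay at 281913 to 284366 (1.06), 573017 to 575528 (0.99) and 850042 to 854842 (0.93). They ranked between the 93.8 and 94.3 percentiles of the replicate 2 scores and the 55.3 to 72.8 percentiles of those of replicate 1. The cluster at 573017 belongs to the run of 12 clusters described above.

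On 3L the leading shared cluster was also the longest of that end, at 221571 to 231543 (score 0.83). Each replicate list had 2 clusters touching it. The one with the largest overlap scored 1.60 in replicate 2 (97.9 percentile) and 0.61 in replicate 1 (38.9 percentile). These lay at 222116 to 227362 and at 227571 to 229647 and did not overlap each other, so their scores belong to different stretches. The next were at 376214 to 379213 (0.76), 539607 to 543741 (0.76), 505150 to 507244 (0.71) and 849159 to 852402 (0.61). In replicate 1 the clusters at 539607 and 505150 stood at the 0.67 and 2.07 percentiles, while in replicate 2 they stood at the 89.6 and 86.5 percentiles. At these 3L sites the overlapping clusters of the replicates ranked at opposite sides of the score distributions of their lists. At 505150 they were similar in length, 1921 bp in replicate 1 and 2105 bp in replicate 2. At 539607 replicate 1 called 1324 bp and replicate 2 called 4547 bp.

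On 3R the leading shared cluster, at 27042516 to 27048099 (5584 bp, score 1.07), ranked high in both libraries. It scored 0.88 in replicate 1 (97.3 percentile) and 1.51 in replicate 2 (96.9 percentile). The second, at 27227809 to 27232078 (1.02), scored 1.64 in replicate 2 (98.2 percentile) but 0.47 in replicate 1 (4.56 percentile). The others were at 27204717 to 27208543 (0.70), 27440661 to 27446927 (0.68) and 27287626 to 27291313 (0.53), and all 3 stood between the 54.6 and 89.0 percentiles in both replicates.

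On X the leading shared cluster was at 513557 to 517130 (3574 bp, score 1.39), with 1.91 in replicate 2 (99.3 percentile) and 0.71 in replicate 1 (77.0 percentile). The cluster at 380324 to 382891 followed (1.18), with 1.54 in replicate 2 (97.3 percentile) and 0.61 in replicate 1 (38.6 percentile). At 544477 to 551461 (0.71) the replicate clusters ranked similarly, at the 91.0 percentile in replicate 1 and the 88.0 percentile in replicate 2. They spanned 544188 to 546213 and 545707 to 551883, and so overlapped only in part. The remaining sites were at 505073 to 508271 (0.58) and 663105 to 665387 (0.58). The X cluster with the highest score of all 690 was a short one at 721675 to 722675 (1001 bp, score 2.72), singled out after its values were seen. Neither replicate list touched it, and 1001 bp is the shortest length in the combined list.

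**Figure D5:**
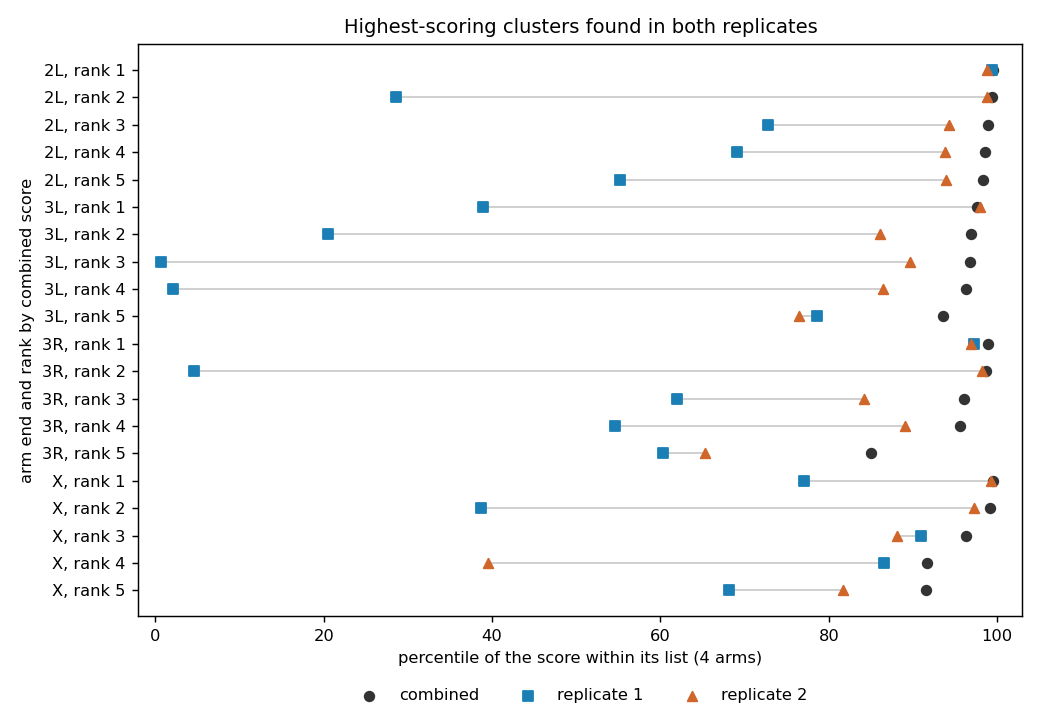
Percentile of the score within its own list (x axis) for the 5 shared clusters with the highest combined scores at each arm end (y axis), in the combined list (circles), replicate 1 (squares) and replicate 2 (triangles). The leading clusters of 2L and 3R lie at or above the 96.9 percentile in all 3 lists, whereas those of 3L at rank 3 and 4 lie at 0.67 and 2.07 in replicate 1.

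Only the leading clusters of 2L and 3R reached the 90th percentile in both replicates among the 20. At the inner limits of the regions, the last cluster counted on 2L lay at 992616 to 995930 (score 0.47) and the first left out at 1006449 to 1008356 (0.44). On 3L these were 997637 to 999160 (0.32) and 1003420 to 1004420 (0.46), on X 993648 to 996944 (0.49) and 1004735 to 1005858 (0.47), and on 3R 26903619 to 26907485 (0.57) and 26895543 to 26897425 (0.43).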

How the data were processed

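Per the submitters' processing notes, alignment used Bowtie 0.12.7, and coordinates are FlyBase release 5, per the file headers. Not given in the sources used here are how enrichment was called, at which threshold and against which input, and how the combined list arose. Each deposited cluster carries 1 score from the authors, taken as log2. This base was read from the values. In replicate 1, raising 2 to the difference from the commonest score gave a fraction with a denominator of at most 200 for 90.8% of scores (relative tolerance 1e-09). That held for 47.1% in the combined list and 31.1% in replicate 2, and with the natural base for 1 combined score and 0 others, so the base rests mainly on replicate 1. The combined list also holds 1 depleted region outside the ends, which was left out. Clusters of the input libraries were not analysed here.

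From the lists, clusters were assigned by midpoint, and covered shares, densities, gaps, median lengths and median scores were computed per region. The library is the unit of replication, so ends and interior were compared within each library by an exact two-sided sign-flip test. Overlap required at least 1 bp. Clusters named in the text were the 5 highest-scoring shared ones, the outermost, the longest and the longest gap at each end. The members, lists and comparisons were chosen with earlier results of these data known. Alternatives were other sizes of the ends and the interior, higher score and length limits, merging, other overlap limits, and each arm or replicate left out. Counting steps were tested on simulated data. Python 3.11.15, numpy 2.4.6, pandas 2.3.3 and matplotlib 3.10.9 were used. The lists hold no read counts, so depth and the precision it gives are unknown. No sequences are printed, because no genome of release 5 was used here.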

Additional observations from a re-analysis of the deposited data

Results flagged for a closer look

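Ends of different arms departed from their interiors in opposite directions in both replicates for 4 measures. The differences between arms were not tested. For clusters per Mb, the 2L end exceeded its interior by 21.7 in replicate 1 and 26.6 in replicate 2 and the 3L end by 4.36 and 13.7, whereas the X end differed from its interior by -0.30 and -5.89. Median length was greater at the 2L end by 174.5 bp and 138.5 bp, and differed by -6.5 bp and -62 bp at the 3L end. Some of these ends lay within the spread of their own 1 Mb interior windows. By number, the windows at or above the 2L end were 1 and 0 of 21 in replicates 1 and 2. On 3L they were 9 and 4 of 22, and on X 13 and 13 of 20. By length they were 1 and 1 of 21 on 2L, and 11 and 14 of 22 on 3L.

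The median score differed by 0.020 and 0.071 at the 2L end and by 0.0054 and 0.0036 at the 3R end, and by -0.032 and -0.067 at the X end. Interior windows with a median score at or above the end were 1 and 1 of 21 on 2L in replicates 1 and 2. On 3R they were 9 and 12 of 25, and on X 18 and 19 of 20. The share of clusters in the upper 10% of scores differed by 4.33 and 0.74 percentage points at the 2L end. It differed by -1.93 and -7.09 points at the 3L end, by -3.14 and -4.94 at the 3R end and by -10.6 and -5.13 at the X end. These shares rest on 1 to 8 clusters at each end.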

How the results depend on the processing

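No paired analysis was possible because, of the groups that share replicate numbers, only the ChIP libraries have cluster lists used here. Ends and interior were already compared within each library. Values are ends minus interior unless stated, first for the combined list and then for the mean of the replicates. Of 199 recomputed values, 76 moved by more than the spread between replicates or their interval, and 19 changed sign. By this rule, leaving out a replicate can never count as a move, and those values are among the 199. Differences in the combined list were judged by the spread of the replicate lists, which cover less. The counts are therefore a description and no measure of robustness.

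The size of the ends mattered most for coverage and number. With ends of 500 kb the covered share differed by -0.79 and 0.10 percentage points, the number per Mb by -17.4 and 0.21 and the median score by -0.015 and -0.015. With 2 Mb these were 8.61 and 2.94, 28.8 and 13.3, and 0.011 and 0.020. Without the outer 200 kb, chosen after seeing the data, coverage differed by 9.33 and 3.40 and number by 32.1 and 16.5.

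Without 2L, coverage differed by 2.55 and 0.47, number by 2.56 and 3.87 and the replicates' median score by -0.0098. Without X, these were 7.42 and 2.72, 21.1 and 13.1, and 0.020. Without 3R, coverage differed by 5.57 and 2.28. An interior reaching the centromeric side gave 5.57 in the combined list. In the combined list the outer 200 kb minus the rest was -23.4 without 2L and -18.6 without 3R. It was -18.2, -11.2 and -22.7 with higher scores, longer clusters and merging.

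Among clusters at or above the median score, coverage differed by 2.75 and 1.19 and number by 5.50 and 5.39. Both levels fell with the smaller number of clusters. In the combined list these clusters covered 19.5% of the ends and 16.8% of the interior, against 35.0% and 29.9% for all clusters. In the replicates' mean they covered 6.63% and 5.44%, against 11.3% and 9.43%. The replicates' gap then differed by -4015 bp, the combined length by 246 bp and the score by -0.0073 and -0.022. At this score limit 6.74% of combined clusters at the ends were touched by both replicates, against 6.15% in the interior, and 56.3% by neither. Of the replicate 1 and 2 clusters at the ends, the other list touched 19.8% and 22.5%. Among clusters of at least 2000 bp, coverage differed by 4.45 and 0.99, the replicates' number by 4.21, gaps by -2472 and -11697.5 bp, the replicates' length by -67.75 bp and scores by -0.012 and -0.0060. Merging within 1000 bp gave 5.61 for combined coverage and 0.81 for number. Counting clusters within 500 bp as shared gave 12.9% for both at the ends, against 10.8% in the interior, and 41.3% for neither at the ends. Requiring overlap of 50% of the shorter cluster gave 19.6% and 22.5% between replicates at the ends. Interior shares for neither and between replicates are not given at these limits. The cause of these shifts was not tested.

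Leaving out replicate 1 or 2 gave 1.61 to 2.05 points for coverage, 6.81 to 10.97 for number, -2387 to -684.5 bp for gaps, -3 to 74.5 bp for length, 0.0022 to 0.011 for score and -9.13 to -6.60 points for outer against rest. Depth is unknown, and 2 libraries limit every comparison.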
